A study of Arabidopsis thaliana with 12 samples.

Results

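The genes that encode the core and linker histones were followed through LFY activation in root explants. The group was set by gene identifiers and not by expression, and it held 41 genes out of 37336 in the count files: 8 for H4, 5 for H3.1, 3 for H3.3, 1 for the centromeric H3 (CENH3), 4 for H2A, 2 for H2A.X, 3 for H2A.W, 3 for H2A.Z, 9 for H2B and 3 for linker H1. All 41 genes passed the filter on low counts at each time point. The material was *Arabidopsis thaliana* of the accession Landsberg *erecta* (Ler) carrying 35S:LFY-GR, in which the viral 35S promoter drives the floral regulator LEAFY (LFY) fused to a glucocorticoid receptor domain in most cells, so that the fusion enters the nucleus on addition of the steroid dexamethasone. Roots of 3-week-old seedlings were placed on callus inducing medium for 5 days, and dexamethasone or mock solution was given for the last 1, 6 or 24 h of that time. The controls therefore carried the transgene too, and 2 separate explant samples, named A and B, were sequenced per condition, which gave 12 libraries of poly-A selected RNA from 6 conditions.

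Nucleosomes are built from pairs of H2A, H2B, H3 and H4, and linker H1 binds where the DNA enters and leaves them. The H4, H3.1, H2A and H2B genes (26 genes) are called replication-type here, because these histones are made mainly while DNA is copied, and plant transcripts of this kind carry poly-A tails and so appear in such libraries. H3.3 and H2A.Z (6 genes) are replacement histones, which are put into chromatin outside of replication, H3.3 mostly over transcribed genes and H2A.Z by the SWR1 remodeling complex. CENH3, H2A.X and H2A.W (6 genes) serve centromeres, DNA repair and heterochromatin, respectively. The study asked how LFY gains access to sites on nucleosomes, and it followed linker H1 there.

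Between 18511462 and 66789371 reads were counted on genes per library, and the 4 libraries of 24 h were the shallowest (18511462 to 25879110). The replicates of dexamethasone at 1 h and those of mock at 6 h differed most from each other. Chi-square per degree of freedom between replicates was 50.5 for dexamethasone at 1 h and 33.2 for mock at 6 h, against 2.53 to 13.1 for the other 4 conditions, so that no replicate pair was within sampling noise. This measure does not tell which library of a pair is the odd one. All 9 root and callus markers (LBD16, LBD17, LBD18, LBD29, PLT1, PLT2, WOX5, SHR and SCR) had reads in every library. They summed to 755 to 1046 counts per 1000000 counted reads after TMM normalization (CPM), whereas 5 green tissue markers summed to 8.16 to 25.5 CPM. *AP1*, the direct LFY target that checks the treatment, had 4 and 1 reads in mock and 286 and 229 reads in dexamethasone at 24 h.

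The start of each gene was searched for the plant histone octamer, CGCGGATC, and for the hexamer, ACGTCA, which are known as elements of plant histone promoters. Both strands were searched from 250 bases before to 50 bases after the gene start in RefSeq TAIR10.1. The octamer was found at 10 of 41 histone genes (24.4%) and at 40 of 27443 protein coding genes (0.146%). It lay at 3 of 5 H3.1, 2 of 8 H4, 2 of 4 H2A, 1 of 3 H2A.W, 1 of 3 H3.3 and 1 of 3 H1 genes, and at 0 of 9 H2B genes. These windows of up to 30 bases around the octamer are shown in the direction of the gene to make the conserved letters visible, with the octamer in capitals on either strand:
AT1G07660 (H4): tacagatttcaCGCGGATCgcaatcttgga
AT5G59690 (H4): cactgccatcaCGCGGATCactaatatgaa
AT1G09200 (H3.1): tcgtaccttcaCGCGGATCagtgttagaaa
AT5G10400 (H3.1): ttaacacaggaCGCGGATCgtaaagataca
AT5G65360 (H3.1): tttagacgtgaCGCGGATCactaaaattaa
AT4G40040 (H3.3): tttatttcagcGATCCGCGacggtttgt
HTA10 (AT1G51060, H2A): attcactctgaCGCGGATCctgaatctcga
HTA13 (AT3G20670, H2A): gcagtaacatcGATCCGCGtgattgtttat
HTA6 (AT5G59870, H2A.W): atacatagtcaCGCGGATCgtgctttattt
AT1G06760 (H1): aaaagagtagcGATCCGCGtagtcattgtt

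The octamer lay 126 bases upstream of AT1G07660 and of AT5G65360, 120 bases upstream of AT5G10400, 116 bases upstream of HTA6 and 90 bases upstream of AT1G09200. AT1G09200 and HTA10 each held a second octamer nearer to the start, at 19 and 10 bases, which is not shown, and the octamer of AT4G40040 lay at 17 bases. The AT4G40040 window lay at chr4:18558946-18558973 on the minus strand, and like those of HTA13, at chr3:7229311-7229340 on the plus strand, and of H1.1 it held the octamer on the strand opposite to the gene.

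The hexamer lay at 8 of 9 H2B genes and at 12 of 41 histone genes (29.3%), against 9.19% of all protein coding genes. AT5G10400 was the only histone gene with both motifs, and its hexamer, 167 bases upstream, did not overlap its octamer. The windows of the 7 H2B genes with a hexamer upstream of the start show its letters and what follows them:
HTB1 (AT1G07790, H2B): tgagaaatatacACGTCAatgatcctcgtg
HTB2 (AT5G22880, H2B): tcaaaagtaaccACGTCAgctatccacgcc
AT2G28720 (H2B): ctaacgtgatccACGTCAccaacgatactg
HTB9 (AT3G45980, H2B): accaatattgacACGTCAtcgatcccgctt
HTB11 (AT3G46030, H2B): gtaatatattccACGTCAtcaatcctcgtg
AT3G53650 (H2B): tggatggatgacACGTCAtcgatccgcaag
AT2G37470 (H2B): tttatttaagccACGTCAtcgatcctcgcg

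The hexamer lay 195 bases upstream of HTB2, which held a second one 2 bases inside the gene, and 31 bases upstream of HTB1, and the one at HTB4 lay 40 bases inside the gene. The core of the LFY consensus, CCANTGG, was present at 2 of 41 histone genes (4.88%) and at 3.93% of all protein coding genes. A match of letters is a description and was not tested as a binding site.

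The histone genes differed in build as well. All 9 H2B genes, all 5 H3.1 genes and 7 of 8 H4 genes consisted of 1 exon block, whereas all genes of H2A and of the other variants, H3.3 and H1 had introns. Of the 41 genes, 29 were unique over all 50-base exon windows of the genome. The lowest share of unique windows belonged to H4 genes, with 69.2% at AT1G07660, 72.1% at AT3G46320 and 74.3% at AT3G45930. Reads with several placements stayed uncounted, so that the levels of these genes may be too low. Exons of 8 genes overlapped those of a neighbor. Strand was not counted, and reads that fit more than 1 gene were set aside as ambiguous (2.01% to 2.51% of the file totals). The levels of these 8 genes per length of exon may therefore be too low. The 2 H3.3 genes AT4G40030 and AT4G40040 lie 42 bases apart on the minus strand.

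Levels per length placed H3.3 at the top. Expressed as counts per kilobase of exon per 1000000 counted reads and averaged over 12 libraries, AT4G40040 had 618 and AT5G10980 had 594, followed by the H3.1 genes AT1G09200 (344) and AT5G65360 (309) and the H2B gene HTB2 (299.7). The lowest levels per length belonged to HTA12 (8.55), which encodes an H2A.W, CENH3 (9.96) and the H2B gene AT3G53650 (13.2). Exon bases that HTA12 shares with a neighbor may lower its level, and so its place below CENH3. Summed over genes, H3.3 had 1509 per kilobase and H3.1 had 941, while H2B had 1199, H4 586, H2A 393, H2A.Z 363 and H1 350.4. The H4 sum includes genes with stretches that cannot be mapped uniquely. Replication-type histones took 0.202% to 0.347% of counted reads and replacement histones 0.193% to 0.246%.

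To ask whether LFY activation changed the supply of histone transcripts, dexamethasone was compared with mock at each time point. At 1 h, 0 of 41 histone genes were called at an adjusted p under 0.01 (quasi-likelihood test of edgeR, Benjamini-Hochberg), as were 0% of all 20447 genes tested. None of the 41 had an unadjusted p under 0.05, and DESeq2 called 0. With the letters A and B as a replicate block, HIS4 (-0.46) and AT3G27360 (-0.61) were called at 1 h, both lower, beside 2.02% of all genes. At 6 h, 0 of 41 passed in edgeR, against 0.0048% of all genes, 1 of 41 had an unadjusted p under 0.05, and DESeq2 called 0. The share of all genes with an unadjusted p under 0.05 is not given here for either time. The 95% intervals of the change lay within 0.5 on the log2 scale in either direction for 29 of 41 genes at 1 h and for 35 of 41 at 6 h. Wider intervals belonged to genes that differed between replicates, and for these a change could not be detected at this spread without the block.

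These counts depended on single libraries. Without the A library of dexamethasone at 1 h, where the lone B library is assumed to vary like the others, 2 genes rose and 2 fell, beside 9.76% of all genes called. Without the B library at 1 h none was called. Without the A library of mock at 6 h, 7 histone genes rose and 17 fell beside 38.9% of all genes called, and without the B library 4 rose and 0 fell beside 13.9%.

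**Figure D1:**
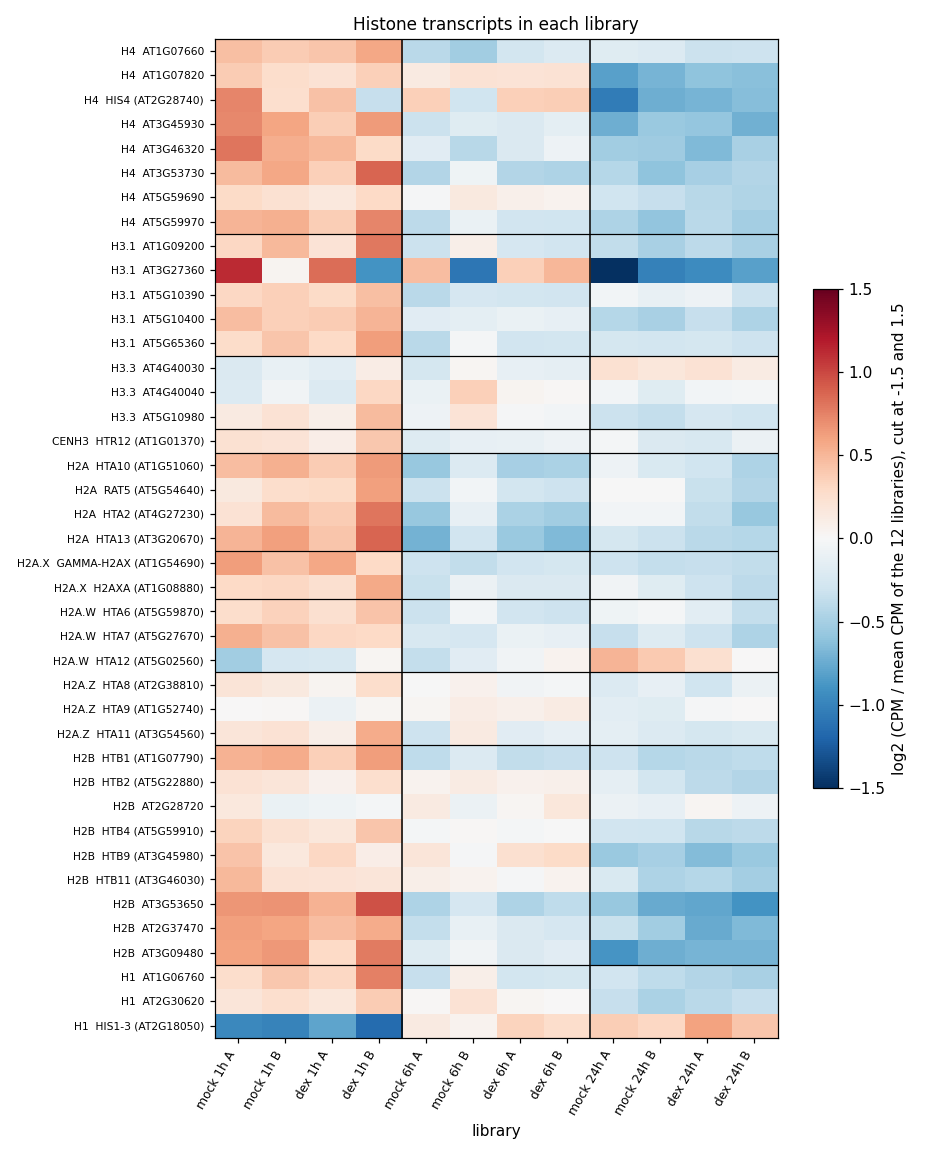
Each row is 1 of the 41 histone genes, grouped by histone, and each column is 1 of 12 libraries; color gives log2 of CPM over the gene's mean CPM. Most replication-type rows are red in the libraries of 1 h and blue at 24 h in mock and dexamethasone alike, while the HIS1-3 row runs the other way and the AT3G27360 row differs between A and B.

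At 24 h, 4 of 41 histone genes passed the test and all 4 fell, while 15.5% of all 19288 genes were called and 8.76% fell. A share of 9.76% of histone genes is therefore near that of all genes. The 4 genes were the H2A genes HTA2 and RAT5, the H2A.X gene H2AXA and the H2B gene HTB2, and their falls ranged from 13.1% to 25.2%. Since whole explants were sequenced, fewer cells of a type and less RNA per cell cannot be told apart.

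HTA2 (AT4G27230), which encodes a canonical H2A, had 93.8 and 93.3 CPM in mock and 74.5 and 65.2 CPM in dexamethasone at 24 h. Both dexamethasone libraries lay below both mock libraries, and HTA2 fell by 25.2% (log2 fold change -0.42 ± 0.07, SE, adjusted p in edgeR 1.3e-05). At 1 h HTA2 was at 112 and 134 CPM in mock and at 126 and 167 CPM in dexamethasone, and at 6 h it was at 65.1 and 88.7 CPM against 69.2 and 67.0 CPM, so that the groups overlapped at both earlier times.

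RAT5 (AT5G54640), an H2A gene known for its role in *Agrobacterium* T-DNA integration, had 57.2 and 57.3 CPM in mock and 45.7 and 42.6 CPM in dexamethasone at 24 h. The groups did not overlap, and RAT5 fell by 22.7% (log2 fold change -0.37 ± 0.08, adjusted p 0.00048). At 1 h it had 63.9 and 69.2 CPM in mock and 70.3 and 88.2 CPM in dexamethasone, and at 6 h 46.1 and 55.9 CPM in mock and 47.7 and 46.4 CPM in dexamethasone. The groups of RAT5 did not overlap at 1 h either, where dexamethasone lay above mock, and they overlapped at 6 h.

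H2AXA (AT1G08880) encodes H2A.X, the variant that is phosphorylated at DNA breaks. It had 170.3 and 155 CPM in mock and 142 and 134 CPM in dexamethasone at 24 h, without overlap, and fell by 15.0% (log2 fold change -0.23 ± 0.06, adjusted p 0.0034). The second H2A.X gene, GAMMA-H2AX, stayed at 32.4 and 31.6 CPM in mock and 31.7 and 31.2 CPM in dexamethasone (log2 fold change -0.02 ± 0.09).

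HTB2 (AT5G22880), the H2B gene with the highest level per length, had 232 and 210.2 CPM in mock and 195 and 188 CPM in dexamethasone at 24 h. It fell by 13.1% (log2 fold change -0.20 ± 0.06, adjusted p 0.0077). HTA2 and RAT5 passed the test whichever of the 4 libraries was left out. H2AXA and HTB2 did not without the A library of mock (adjusted p 0.15 and 0.26) or without the B library of dexamethasone (adjusted p 0.045 and 0.056). With all 12 libraries in 1 fit none of the 4 passed (adjusted p 0.064 to 0.23, with 7.28% of all genes called).

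**Figure D2:**
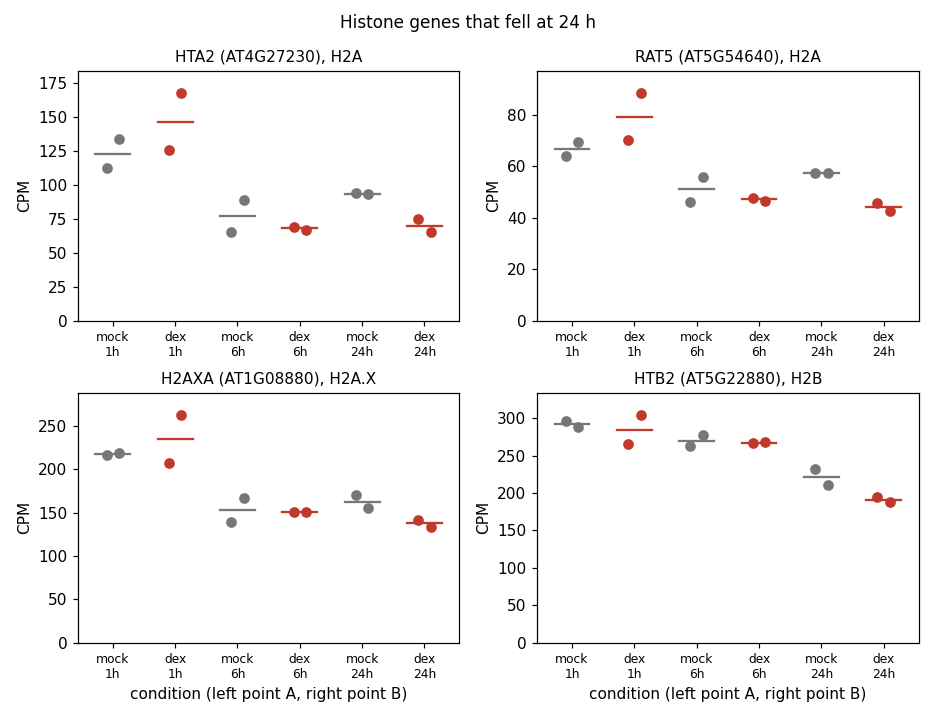
CPM of the 4 histone genes that fell at 24 h, in each library; gray points are mock, red points dexamethasone, and horizontal lines are means of 2 libraries. HTA2 at 24 h sits at 93.8 and 93.3 CPM in mock and 74.5 and 65.2 CPM in dexamethasone, while at 1 and 6 h the groups of HTA2 overlap.

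The other histone genes did not pass at 24 h. All 4 H2A genes and all 3 H2A.W genes had a change below 0, with medians of -0.30 and -0.20 on the log2 scale beside 0.01 for all genes tested. HTA10 (-0.22), also an H2A gene, and HTA6 (-0.20), which encodes H2A.W, missed the threshold with adjusted p of 0.016 and 0.015. The 3 H2A.Z genes had changes of -0.01 at HTA8, 0.17 at HTA9 and -0.07 at HTA11, and HTA9 had 201 and 198 CPM in mock and 222 and 224 CPM in dexamethasone (adjusted p 0.020). Median changes were -0.05 for the 26 replication-type genes, 0.03 for the 6 replacement genes, -0.16 for the 6 other variants and 0.04 for H1. The 8 H4 genes had a median of 0.02 and the 5 H3.1 genes a median of -0.01.

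**Figure D3:**
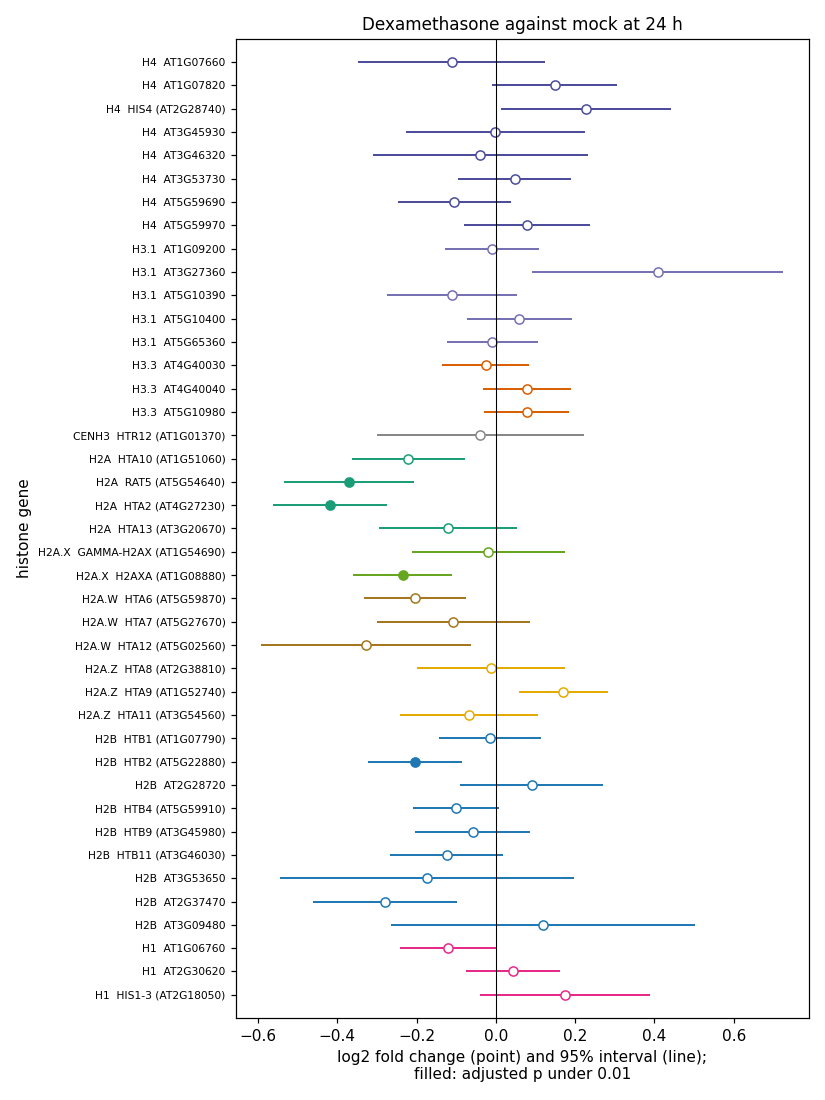
Log2 fold change of each histone gene, dexamethasone against mock at 24 h, with its 95% interval; filled points passed an adjusted p of 0.01. The 4 filled points, HTA2, RAT5, H2AXA and HTB2, lie between -0.42 and -0.20, and 36 of 41 intervals lie within 0.5 of 0.

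Linker H1 genes were followed because the study also measured H1 occupancy on chromatin. AT1G06760 encodes H1.1, and AT2G30620 encodes H1.2, the main H1 proteins of the plant. H1.1 had 171 and 160.5 CPM in mock and 155 and 149.6 CPM in dexamethasone at 24 h, without overlap, but the change of -0.12 ± 0.06 did not pass (adjusted p 0.14). H1.2 had 199 and 183 CPM in mock and 192 and 200.1 CPM in dexamethasone, which overlapped (log2 fold change 0.04 ± 0.06). Its interval of -0.07 to 0.16 leaves out a change of more than that size at the 95% level.

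HIS1-3 (AT2G18050) encodes H1.3, a linker histone known to respond to stress. At 24 h it had 24.7 and 23.7 CPM in mock and 29.1 and 25.5 CPM in dexamethasone (log2 fold change 0.18 ± 0.10, adjusted p 0.26). At 1 h it had 9.84 and 9.60 CPM in mock and 11.1 and 8.64 CPM in dexamethasone, and at 6 h 21.0 and 19.9 CPM in mock and 24.2 and 23.0 CPM in dexamethasone. Both dexamethasone libraries of HIS1-3 lay above both mock libraries at 6 h (log2 fold change 0.20 ± 0.08, adjusted p 0.42) and at 24 h, neither of which passed, and all 4 libraries of 1 h lay below all later ones. H1.1 at 1 h had 252 and 278 CPM in mock and 261 and 354 CPM in dexamethasone, and at 6 h 165 and 222 CPM against 174 and 175 CPM. H1.2 had 287 and 301 CPM against 285 and 331 CPM at 1 h and 257 and 294 CPM against 259 and 255 CPM at 6 h.

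The 3 H3.3 genes encode the replacement H3 and had the highest mean CPM of all histone genes. AT4G40030 had 461 and 444 CPM in mock and 459 and 427 CPM in dexamethasone at 24 h. AT4G40040 had 910.1 and 825 CPM against 911 and 914 CPM, and AT5G10980 had 389 and 379.9 CPM against 411 and 398 CPM. None of the 3 changed by more than 0.08 on the log2 scale, and their intervals together spanned -0.13 to 0.19. At 1 h AT4G40040 reached 1160.5 CPM in the B library of dexamethasone, against 813 CPM in the A library and 808 and 899 CPM in mock. At 6 h it reached 1199 CPM in the B library of mock, against 873 CPM in A and 964 and 946 CPM in dexamethasone. Those 2 libraries belong to the conditions whose replicates differed most.

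AT4G40030 had 337 and 365 CPM in mock and 352 and 425 CPM in dexamethasone at 1 h, and 328 and 399.7 CPM against 361 and 358 CPM at 6 h. AT5G10980 had 534 and 565 CPM against 519 and 679.9 CPM at 1 h, and 465 and 563 CPM against 483 and 474 CPM at 6 h. The study assigned a LFY ChIP-seq peak to AT4G40030 and AT4G40040 and another to HTA12. CENH3 (HTR12, AT1G01370) had 20.9 and 20.5 CPM against 19.1 and 23.5 CPM at 1 h, 15.5 and 16.3 CPM against 16.4 and 16.9 CPM at 6 h, and 17.5 and 15.3 CPM against 15.0 and 16.7 CPM at 24 h. The groups of CENH3 overlapped at 1 and 24 h.

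HTA12 (AT5G02560) encodes an H2A.W that marks heterochromatin and had the lowest level per kilobase of exon among the histone genes. It had 18.4 and 16.9 CPM in mock and 15.2 and 12.9 CPM in dexamethasone at 24 h, without overlap, but the change of -0.33 ± 0.13 did not pass (adjusted p 0.065). At 1 h it had 8.97 and 10.8 CPM in mock and 10.9 and 13.1 CPM in dexamethasone, and at 6 h 10.02 and 11.5 CPM in mock and 12.4 and 13.4 CPM in dexamethasone. The groups of HTA12 did not overlap at these times either, but there dexamethasone lay above mock. Of the 1506 exon bases of HTA12, 522 are shared with AT5G02570 on the other strand. Reads that fit both genes were set aside as ambiguous. The level of HTA12 per kilobase, taken over all exon bases, and its rank may therefore be too low.

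The response at 24 h was then compared with that at the earlier times in a fit over all 12 libraries. No histone gene differed: 0 of 41 passed for 24 h minus 6 h (4.43% of all genes), for 24 h minus 1 h (4.74%) and for 6 h minus 1 h (0.0612%). An unadjusted p under 0.05 was met by 2, 3 and 3 genes, counts that are not set against the share of all genes here. DESeq2 called 0, 1 and 0. The lowest adjusted p belonged to RAT5 for 24 h minus 1 h, at 0.038 with a difference of -0.63 ± 0.17, and RAT5 was also the gene that DESeq2 called and that passed without the A library of dexamethasone at 1 h. For the other 3 genes that fell at 24 h, a difference from the earlier responses was not shown.

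Among genes of related function, 0 of 22 DNA replication genes passed at 24 h, and the largest change was that of *CDC6*, a licensing factor (0.55 ± 0.21, adjusted p 0.055), followed by *CDC45* (-0.28) and *CDT1A* (0.25), none of which passed. Of 17 G2 and mitosis genes, 1 fell, the kinesin gene HINKEL (-0.30), with *CYCB1;4* at -0.33 and *AUR2* at 0.32 not passing. Of 24 genes for histone chaperones and depositors, 1 rose, the H2A-H2B chaperone gene *NAP1;3* (0.27 ± 0.07), while *KNL2* (0.35), *ASF1B* (0.33) and *DDM1* (0.30) did not pass. Of 9 root and callus markers, 5 fell and 1 rose, with *LBD29* at -1.85, *LBD17* at -0.99 and *LBD18* at -0.71. The summed level of these markers was 1046 and 1010.2 CPM in mock and 803 and 755 CPM in dexamethasone at 24 h, and its part in the fall of H2A genes was not tested. The 5 green tissue markers summed to 18.3 and 16.8 CPM in mock and 22.1 and 21.0 CPM in dexamethasone, and their part was not tested either. RBCS1A made up most of that sum, with 14.5 and 13.7 CPM in mock and 20.6 and 18.7 CPM in dexamethasone (0.48, passed), whereas the change was -1.49 at *LHCB2.1* and -0.50 at *CAB3*, neither of which passed, and LHCB1.1 and RBCS3B were at 0 to 0.137 CPM.

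Histone transcripts were also compared between mock treatments of 1, 6 and 24 h. All explants were harvested at the same age, so that these libraries differ at least in how long the mock solution was on them and in sequencing depth. The sample titles do not say whether the time points were prepared or sequenced together. Of the 41 histone genes, 29 differed between mock at 24 h and mock at 1 h, 27 lower and 2 higher, beside 24.5% of all 21241 genes called and 14.3% lower. Among the 26 replication-type genes 22 were lower at 24 h, among the 6 replacement genes 1 was lower and none higher, and the median was -0.83 for the former and -0.25 for the latter, beside -0.0035 for all genes tested. The difference between the 2 classes was not tested. Other variants were lower too. H2A.X genes summed to 279 and 274 CPM in mock at 1 h and to 203 and 187 CPM at 24 h. H2A.W genes summed to 269 and 278 CPM at 1 h and to 209 and 215 CPM at 24 h, although the H2A.W gene HTA12 was higher. When reads were drawn down to the smallest library, the same 29 genes were called, beside 24.2% of all genes. Over these mock libraries the root and callus markers summed to 857 and 897 CPM at 1 h and 1046 and 1010.2 CPM at 24 h, and the green tissue markers to 8.16 and 9.47 CPM at 1 h and 18.3 and 16.8 CPM at 24 h, and their part in the lower histone levels was not tested.

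All 8 H4 genes were lower in mock at 24 h than at 1 h, with a median of -1.05. AT3G45930 had 58.7 and 53.7 CPM at 1 h and 21.5 and 24.2 CPM at 24 h, a difference of -1.29 ± 0.11. AT1G07820 had 116 and 107 CPM at 1 h and 50.9 and 55.0 CPM at 24 h, and at 6 h it was still at 97.7 and 104 CPM. AT5G59690, the H4 gene with the highest level per length, had 111 and 107 CPM at 1 h, 90.3 and 101 CPM at 6 h and 74.0 and 71.5 CPM at 24 h. In dexamethasone it had 102 and 113 CPM, 95.8 and 94.6 CPM and 68.3 and 66.4 CPM at these times. AT1G07660, the lowest H4 gene per length, had 30.8 and 29.3 CPM, 17.0 and 15.6 CPM and 19.8 and 19.5 CPM in mock, and 30.1 and 33.5 CPM, 18.6 and 19.4 CPM and 18.0 and 18.2 CPM in dexamethasone.

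Of the 5 H3.1 genes 4 were lower at 24 h. AT1G09200, the H3.1 gene with the highest level per length, had 329 and 374 CPM in mock at 1 h, 212 and 282 CPM at 6 h and 206 and 189.6 CPM at 24 h, a difference of -0.82 ± 0.18 between 24 and 1 h. In dexamethasone it had 306 and 461 CPM, 223 and 219 CPM and 202 and 189 CPM. AT3G27360 had the largest estimate (-1.94 ± 0.61) but missed the threshold (adjusted p 0.027). It had 57.5 CPM in A and 27.4 CPM in B of mock at 1 h, 47.5 and 14.2 CPM in dexamethasone at 1 h, and 36.7 and 12.6 CPM in mock at 6 h. Its replicates were closer in dexamethasone at 6 h (34.0 and 37.4 CPM) and at 24 h (13.8 and 15.1 CPM), while in mock at 24 h they had 8.91 and 13.2 CPM, a log2 difference of 0.56 and the largest between replicates of that group among the 41 genes. The exon of AT3G27360 shares 328 bases with AT3G27380 on the same strand, a gene that ranged from 55.8 to 73.2 counts per 1000000 counted reads, without TMM, over the 12 libraries.

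Of the 9 H2B genes 8 were lower at 24 h, and the exception, AT2G28720, had a difference of -0.14 ± 0.10. AT3G53650, the H2B gene with the lowest level per length, had 20.4 CPM in both mock libraries at 1 h, 9.33 and 10.8 CPM at 6 h and 8.67 and 7.58 CPM at 24 h (-1.32 ± 0.15). In dexamethasone it had 18.4 and 25.0 CPM, 9.34 and 9.87 CPM and 7.46 and 6.92 CPM. HTB2 had 296 and 288 CPM in mock at 1 h, 263 and 277 CPM at 6 h and 232 and 210.2 CPM at 24 h, a smaller difference of -0.39 ± 0.08, and in dexamethasone 266 and 304 CPM at 1 h and 267 and 268 CPM at 6 h.

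Of the 4 H2A genes 2 were lower, HTA10 and HTA13. HTA10, the H2A gene with the highest level per length, had 149.8 and 157 CPM in mock at 1 h, 73.2 and 94.0 CPM at 6 h and 103 and 92.6 CPM at 24 h, so that it stood lowest at 6 h. In dexamethasone it had 141 and 169 CPM, 76.4 and 77.9 CPM and 88.1 and 78.9 CPM. HTA13 had 76.4 and 82.2 CPM in mock at 1 h and 45.0 and 43.2 CPM at 24 h. H1.1 (-0.67 ± 0.15) and H1.2 (-0.61 ± 0.09) were lower as well.

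HIS1-3 and HTA12 went the other way. HIS1-3 was 2.51-fold higher in mock at 24 h (log2 fold change 1.33 ± 0.12), and HTA12 was 1.79-fold higher (0.84 ± 0.14). Among the H3.3 genes AT5G10980 was lower (-0.51 ± 0.12), whereas AT4G40030 (0.38 ± 0.11, adjusted p 0.022) and AT4G40040 (0.03 ± 0.17) did not pass. None of the 3 H2A.Z genes passed (-0.36 to -0.17).

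**Figure D4:**
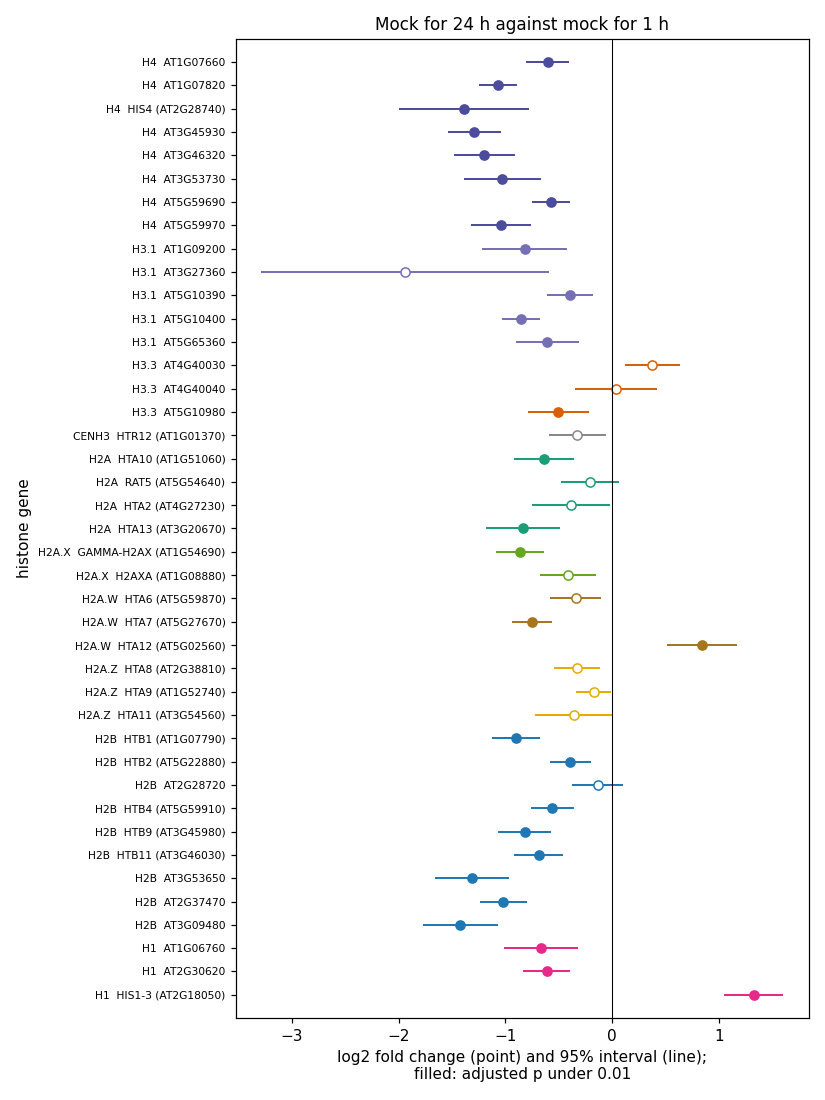
Log2 fold change of each histone gene, mock for 24 h against mock for 1 h, with its 95% interval; filled points passed an adjusted p of 0.01. The 8 H4 points are filled and below 0, the H2A.Z points are open, and HIS1-3 (1.33) and HTA12 (0.84) are the filled points above 0.

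The number of histone genes that differed between mock at 24 h and at 1 h was 19 without the A library of mock at 24 h (13.5% of all genes called) and 32 with DESeq2 (29%). Mock at 6 h, compared with the same mock libraries of 1 h, differed at 19 of 41 genes, 18 lower and 1 higher, beside 14.6% of all genes called and 9.26% lower. The gene that was higher was HIS1-3 (1.08 ± 0.12). Of replication-type genes 14 of 26 were lower with a median of -0.66, and of replacement genes 0 of 6 were called with a median of -0.02. Both H2A.X genes and the H2A.W genes HTA6 and HTA7 were lower as well.

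Between mock at 24 h and mock at 6 h, 6 histone genes differed, beside 15.3% of all genes called and 8.49% lower. AT1G07820 (-0.92), AT5G59690 (-0.39), HTB9 (-0.61), AT3G09480 (-0.68) and H1.2 (-0.52) were lower, and HTA12 (0.72) was higher. This count was 1 when the A or the B mock library of 24 h was left out (6.11% and 7.12% of all genes called), 13 without the A or the B dexamethasone library of 1 h (19.4% and 19.5%), and 14 with DESeq2 (21.1%), so that it moved with the share of all genes. AT1G07820 was the gene called when either mock library of 24 h was left out.

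Other cell cycle genes were compared over the same mock libraries. In mock at 24 h against 1 h, 11 of 17 G2 and mitosis genes were lower, among them *CYCB2;1* (-1.11), KNOLLE (-0.85) and *AUR1* (-0.84), while of 22 DNA replication genes 3 were higher, such as *TSO2* (0.43), and 2 lower, *CDT1A* (-0.48) and *MCM6* (-0.29). Of 24 genes for histone chaperones and depositors 5 were higher, among them *ARP6* (0.72), a SWR1 subunit, and *HIRA* (0.47), which deposits H3.3. The part of cell division in the lower level of replication-type transcripts was not tested.

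The genes with and without promoter motifs were described side by side. Of the 10 genes with the octamer 8 were lower in mock at 24 h than at 1 h, with a median of -0.62. Of the 31 without it 19 were lower and 2 higher, with a median of -0.61. Among all genes, 24.5% were called and 14.3% were lower. At 24 h of dexamethasone 0 of the 10 and 4 of the 31 passed, beside 15.5% of all genes. The groups also differ in histone family, since 0 of 9 H2B genes held the octamer. A difference between the groups was not tested.

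The balance of variants was expressed as the ratio of summed levels per kilobase. The H3.1 to H3.3 ratio was 0.847 and 0.812 in mock and 0.813 and 0.764 in dexamethasone at 1 h. It was 0.556 and 0.514 in mock and 0.546 and 0.554 in dexamethasone at 6 h, and 0.528 and 0.538 in mock and 0.524 and 0.504 in dexamethasone at 24 h. All 4 libraries of 1 h were thus higher than the 8 later ones, and mock and dexamethasone differed by 0.02 at 24 h. The H2A to H2A.Z ratio was 1.16 and 1.12 in mock and 0.912 and 0.808 in dexamethasone at 24 h, without overlap. At 6 h it was 0.759 and 0.908 in mock and 0.778 and 0.738 in dexamethasone, and at 1 h 1.35 and 1.47 in mock and 1.47 and 1.66 in dexamethasone, and both pairs of groups overlapped.

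**Figure D5:**
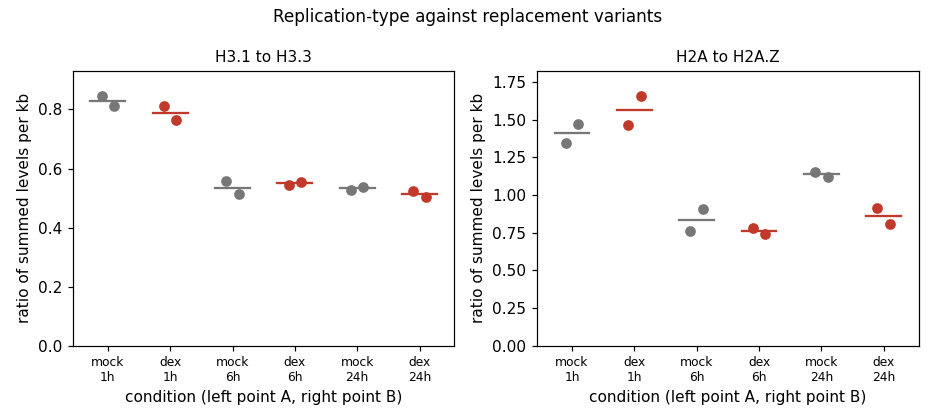
Ratio of summed levels per kilobase in each library, H3.1 to H3.3 on the left and H2A to H2A.Z on the right; gray is mock, red is dexamethasone and horizontal lines are means of 2 libraries. The H3.1 to H3.3 ratio is 0.764 to 0.847 at 1 h and 0.504 to 0.556 later, and the H2A to H2A.Z ratio at 24 h is lower in both dexamethasone libraries.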

How the data were processed

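Single-end RNA-seq libraries were made from poly-A selected RNA of 12 samples in 6 conditions, with 2 biological replicates each. The authors trimmed reads (Trimmomatic 0.36 in the submitters' processing notes), aligned them by STAR against TAIR10 and Araport11, and counted them per gene with HTSeq (0.7.2 in those notes) without strand at a minimum mapping quality of 30. The deposited values are raw counts, and multiply placed reads stayed uncounted. Rows that name no gene were left out of library sizes; reads not placed uniquely ranged from 6.90% to 22.2% of the file totals.

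Low counts were filtered with filterByExpr, TMM factors were computed, and the 4 libraries of a time point were fitted with the quasi-likelihood functions of edgeR 4.0.16 (R 4.3.3, with limma 3.58.1) to test dexamethasone against mock. A gene was called at a p under 0.01 after Benjamini-Hochberg adjustment over all genes tested. Responses and mock libraries were compared between time points in a fit of all 12 libraries. Standard errors were calculated from the test statistic. The procedure was tested on simulated data. DESeq2 1.42.0, RLE normalization, other filters, a replicate block, a joint fit and leaving out each library were alternatives. Exon lengths, positions and sequences came from RefSeq TAIR10.1, and its gene models may differ from those counted. Protein sequences were not used here.

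The 41 genes and the lists of related genes were chosen with earlier results of these data known. Values per library are given for genes past the threshold under dexamethasone, for H1, H3.3 and CENH3, for genes annotated to LFY peaks, and for the most and the least abundant gene of H4, H3.1, H2A and H2B per length; of the other lists, counts and the largest changes are given. HTA6, HTA9, GAMMA-H2AX, HTA13, AT3G45930 and AT1G07820 were given in addition after their values were seen. The same holds for the LFY core search and the alternatives for comparisons between time points.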

Additional observations from a re-analysis of the deposited data

How the results depend on the processing

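Alternatives for comparisons between time points were chosen after seeing the data. At 24 h, 4 genes (15.5% of all genes) became 2 with DESeq2 (10.3%), 0 with all 12 libraries in 1 fit (7.28%) and 8 at an adjusted p under 0.05 (22.5%), and 2 to 7 when 1 of the 4 libraries was left out (11.1% to 14%). At 1 and 6 h, 0 became 0 to 4 and 0 to 24 when a library was left out (up to 9.76% and 38.9% of all genes). The response at 24 h minus 1 h gave 1 gene with DESeq2 (8.35%) and 0 to 1 when a library was left out. Mock at 24 h against 1 h gave 19 to 33 genes (13.2% to 28.5%) and mock at 24 h against 6 h 1 to 13 (6.11% to 19.5%) when a library was left out, and 14 with DESeq2 in the latter (21.1%). The cause was not tested.

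Replicates share only a letter. With the letter as a replicate block, 2 genes were called at 1 h, HIS4 and AT3G27360, both lower (2.02% of all genes), 0 at 6 h (0.403%) and 8 at 24 h, of which 1 was higher (17.9% of all genes). In the fit of all libraries with the block within time point, 27, 5 and 17 genes differed between mock at 24 and 1 h, 24 and 6 h, and 6 and 1 h. Without the block 29, 6 and 19 differed, beside 24.5%, 15.3% and 14.6% of all genes, and the shares with the block are not given here. Deviations of mock and dexamethasone libraries of the same letter correlated at 0.52, -0.05 and 0.02 across genes at 1, 6 and 24 h.

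When 1 library was left out, median log2 changes ranged from -0.10 to 0.27 at 1 h and -0.19 to 0.085 at 6 h for replacement genes, from -0.059 to 0.038 at 6 h for replication-type genes, from -0.19 to 0.065 at 6 h and -0.022 to 0.10 at 24 h for linker genes, and from -0.23 to -0.11 at 24 h for the other variants. With reads on nuclear protein coding genes as denominator, the replication-type share was 0.258% in mock and in dexamethasone at 6 h (0.254% of all counted reads in both) and 0.215% in mock at 24 h (0.211%). At the depth of the 24 h libraries, changes of the low genes HTA12 and AT3G53650 had standard errors of 0.13 and 0.18.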
